A study of Arabidopsis thaliana with 48 samples.

Results

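The late genes of the recovery from heat stress (HS) are *Arabidopsis thaliana* genes defined by their transcripts in the wild type Col. They stayed below a set limit on the rise shortly after HS and stood above the unheated level 1 d and 2 d later. They were selected on the Col read counts alone. For each library, each gene's count was divided by the sum of the library's gene counts and scaled to 1e6 (CPM), and for each time point the log2 ratio of (mean CPM + 1) to (mean CPM without HS + 1) was taken. A late gene has a ratio below 0.5 at 4 h and above 0.8 at both 28 h and 52 h, and its lowest replicate at 28 h and at 52 h lies above its highest replicate without HS. This selected 128 of the 33323 genes in the files, or 0.384%. Of these, 126 are protein-coding, 1 is a pseudogene (*AT2G06950*) and 1 is a non-coding RNA (*AT4G12917*), and all 126 protein-coding genes passed the filter on low counts and were tested. Because Col chose the genes, Col values are given below as a description without a test, and every comparison that is tested sets mutant libraries against mutant libraries, which took no part in the choice. One edgeR model was fitted to all libraries, so the Col libraries enter those tests only through the shared estimate of the spread between replicates.

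RNA-seq was done on seedlings of *hsfa2 hsfa3-1*, *hsfa2*, *hsfa3-1* and Col, all in the Col-0 background. The single mutants each carry an insertion in a heat shock transcription factor gene, *HSFA2* or *HSFA3*, and *hsfa2 hsfa3-1* carries both. Seedlings grew under 16 h of light and 8 h of dark, and at an age of 4 d they received an acclimation treatment (ACC) of 1 h at 37 °C, 90 min at 23 °C and 45 min at 44 °C. Whole seedlings were sampled in 3 biological replicates with no HS and after ACC, 4 h, 28 h or 52 h into recovery, which gave 48 libraries in 16 groups. Each genotype has a single no HS group, and neither its age nor its hour of day at harvest is given in the sources used here. The effects of ACC, of growth between time points and of the hour of day therefore cannot be told apart in any comparison with no HS. In whole seedlings, a change in the amount of a cell type and a change in RNA per cell cannot be told apart either.

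After HS, class A heat shock factors bind heat shock elements in promoters and switch on HS-response genes, many of which encode chaperones. HSFA2 and HSFA3 prolong the induction of a subset of these HS-response genes, the HS memory genes. By annotation, the late genes include 14 receptor-like kinases, which read wall fragments and microbial molecules outside the cell, 6 class III peroxidases, which cross-link wall polymers with hydrogen peroxide, and 9 other cell wall genes, such as enzymes that trim wall sugars. Most of the others are 19 metabolic enzymes, 13 regulators, 11 transporters and 31 genes that were put in no kind. These are counts without a comparison with all genes.

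The libraries held 27739931 to 34058960 counts on genes. A count of 3 corresponds to between 0.0881 and 0.108 CPM, and CPM values are not scaled by gene length, so they are compared between libraries and not between genes. All 48 libraries were most alike, over all genes, to a library of the same time point, and 42 of them to one that also had the same replicate number. At 4 h after ACC, *HSFA2* averaged 55.1 ± 2.97 CPM in *hsfa2 hsfa3-1*, 56.4 ± 13.4 CPM in *hsfa2* and 1102 ± 169 CPM in *hsfa3-1*, against 1190.0 ± 122 CPM in Col (SD, n = 3 each). *HSFA3* averaged 191 ± 5.17 CPM in *hsfa2 hsfa3-1*, 1178 ± 194 CPM in *hsfa2* and 152 ± 1.05 CPM in *hsfa3-1*, against 864 ± 77.8 CPM in Col. The disrupted gene was thus low in each mutant that carries its insertion, as labelled.

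In Col, the log2 ratio of the late genes ran from −2.69 to 0.49 at 4 h (median −0.38), from 0.80 to 3.68 at 28 h (median 1.15) and from 0.81 to 3.14 at 52 h (median 1.08). At 4 h, 56 of the 128 genes were below −0.5 and 20 were below −1, and the other 72 lay between −0.5 and 0.5. The group thus holds genes that dropped soon after ACC and then overshot, and genes that were near their no HS level at 4 h by this ratio. The 1 CPM added to both means makes the ratio small for genes with few counts. *PP2-A5* averaged 0.294 CPM without HS and 0.777 CPM at 4 h in Col, at a ratio of 0.46, so some such genes were already raised. At the later times 75 genes had the higher ratio at 28 h and 53 at 52 h. The genes closest to the limits of the rule were *AT2G33830*, a dormancy/auxin-associated gene (0.80 at 28 h), *AT5G39020*, a malectin-type receptor kinase (0.80 at 28 h), and *AT3G51660*, a tautomerase of the MIF family (0.81 at 52 h). Just outside were *SEX4*, a glucan phosphatase of starch breakdown (0.797 at 28 h), *AT1G11330* (0.792 at 52 h) and *AT5G39030* (0.791 at 28 h). *AT2G33830* had 794, 437 and 812 CPM at 28 h in *hsfa2 hsfa3-1*, against 253, 263 and 235 CPM without HS, and it passed the test below at both times in all 3 mutants.

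Several features that the rule did not use describe the late genes. They lie on all 5 chromosomes, with 36, 18, 17, 30 and 27 genes on chromosomes 1 to 5. In 15 pairs, 19 of them stand within 5 genes of another late gene. These include tandem copies with similar coding sequences, *WAK1* and *WAK2* (79.5% identical), *AZI1* and *EARLI1* (84.1%), *PUP7* and *AT4G18205* (89.1%), the glycine-rich genes *GRP9* and *AT2G05510* (72.7%), and *AT4G15660*, *AT4G15670*, *AT4G15690* and *AT4G15700* (88.3% to 93.2% between any pair). Reads shared between such copies could be split or dropped in counting, so the copies are not independent evidence. Of the 128 genes, 29 overlap another annotated gene, and since the strand setting of the counting is not given, the reads of such a gene cannot be told from those of its neighbour.

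The promoters were read from the TAIR10.1 genome with the RefSeq annotation, in windows from 250 bases before to 50 bases after the annotated start, for the 126 protein-coding late genes and for 26699 protein-coding genes in all. Each motif was searched on both strands. The heat shock element cores GAANNTTC and TTCNNGAA were present in 11.1% and 7.94% of the late gene windows, against 11.5% and 9.07% of all windows. The DRE core CCGAC, which DREB factors bind, was in 6.35% of the late gene windows, against 15.0% of all. The W-box core TTGAC, which WRKY factors bind, was in 58.7% of the late gene windows, against 50.5% of all. The ABRE core ACGTG was in 32.5%, against 26.9% of all, and the G-box CACGTG, which contains it, in 7.14%, against 7.79%. CACATG, a site of MYC2-type factors, was in 15.1%, against 13.0% of all. The evening element AAAATATCT, known from clock-controlled promoters, was in 10 late gene windows or 7.94%, against 2.86% of all windows. These shares are counts of letters without a test.

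The stretches around 6 of these 10 evening elements are shown because the motif had the largest ratio of shares among the 8 motifs searched, with the 9 letters in capitals and 14 bases on each side where the upstream window allowed it. The element is read on the opposite strand in *AT5G62360* and *MAF5*. The stretches are from the plus strand for *PEN3* (chr1:22034290-22034326), *WAKL6* (chr1:5518185-5518218), *LOX3* (chr1:5977225-5977261), *AT5G62360* (chr5:25040480-25040516) and *MAF5* (chr5:25997322-25997358), and from the minus strand for *JAL22* (chr2:16416993-16417029), all in TAIR10.1 and 5′ to 3′ with respect to the gene.
PEN3: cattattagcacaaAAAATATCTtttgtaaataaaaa
WAKL6: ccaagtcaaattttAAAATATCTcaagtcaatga
LOX3: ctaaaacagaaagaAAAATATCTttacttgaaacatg
AT5G62360: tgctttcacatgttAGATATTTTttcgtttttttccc
MAF5: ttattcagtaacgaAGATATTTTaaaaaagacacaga
JAL22: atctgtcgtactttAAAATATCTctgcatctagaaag
The element began 20 bases before the annotated start in *WAKL6* and 170 bases before it in *JAL22*, with the others in between.

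The late genes rose in the mutants as well. In *hsfa2 hsfa3-1*, 90 of the 126 tested genes were higher at 28 h than without HS (edgeR quasi-likelihood test, Benjamini-Hochberg adjusted p below 0.05 over all 21096 genes tested), beside 9.82% of all genes, and 81 were higher at 52 h, beside 5.71%. These are 71.4% and 64.3% of the late genes tested. In *hsfa2*, 99 rose at 28 h (9.81% of all genes) and 92 at 52 h (5.89%). In *hsfa3-1*, 105 rose at 28 h (11.5%) and 86 at 52 h (4.37%). In each of these 6 comparisons 0 of the 126 were lower by edgeR and 0 by DESeq2, and 0 had an unadjusted p below 0.05 in that direction. Of all genes, 10.1% and 5.42% were lower at 28 h and 52 h in *hsfa2 hsfa3-1*, 7.85% and 4.96% in *hsfa2*, and 11.1% and 3.21% in *hsfa3-1* by edgeR. DESeq2 called 91 and 88 late genes higher at 28 h and 52 h in *hsfa2 hsfa3-1*, 104 and 94 in *hsfa2*, and 106 and 92 in *hsfa3-1*. The shares of all genes that DESeq2 called in these comparisons were not counted.

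The median log2 fold change (edgeR, given below ± its standard error) of the late genes was 1.18 at 28 h and 1.14 at 52 h in *hsfa2 hsfa3-1*, 1.20 and 1.28 in *hsfa2*, and 1.16 and 1.14 in *hsfa3-1*. Over all genes tested, the medians were between −0.0028 and 0.02 in these comparisons. The spread among late genes was wide, with quartiles of 0.79 and 1.61 in *hsfa2 hsfa3-1* at 28 h. The counts were smaller without the libraries of replicate 3: 37 and 34 genes then rose at 28 h and 52 h in *hsfa2 hsfa3-1*, 39 and 29 in *hsfa2* and 50 and 30 in *hsfa3-1*. The shares of all genes in this reduced fit were not counted. A loss of calls over all genes therefore cannot be told from one in the late genes. Within single replicate numbers, the median log2 ratio over the late genes was 0.87 to 0.94 at 28 h and 0.83 to 0.93 at 52 h in *hsfa2 hsfa3-1*, 0.73 to 1.03 and 0.80 to 1.00 in *hsfa2*, and 0.75 to 1.09 and 0.75 to 1.04 in *hsfa3-1*, so the group was higher in each of the 3 replicates.

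**Figure D1:**
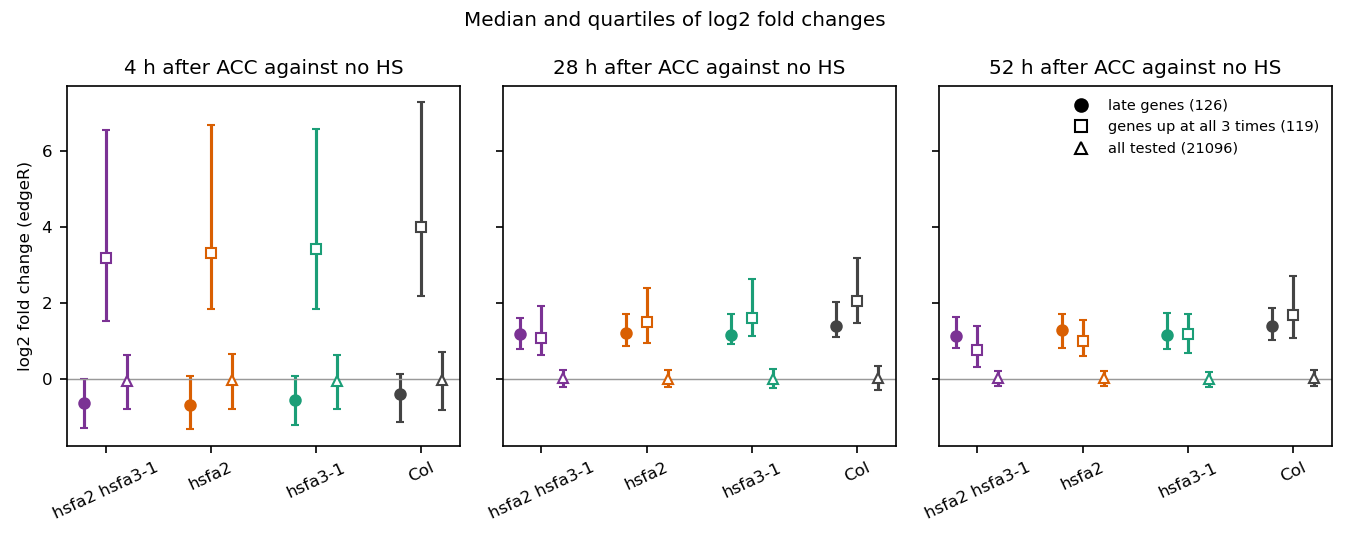
Median log2 fold change (edgeR, y axis) against no HS of the 126 late genes, of 119 genes raised at all 3 times in Col and of all 21096 genes tested, at each time point and in each genotype, with bars from the lower to the upper quartile of genes. The late genes have medians between 1.14 and 1.28 in the 3 mutants at 28 h and 52 h; Col, at 1.40 and 1.38, chose them.

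At 4 h after ACC the late genes were more often lower than higher. In *hsfa2 hsfa3-1*, 51 of 126 fell (35.3% of all genes did) and 11 rose (34.8%). In *hsfa2*, 55 fell (35.2%) and 10 rose (34.7%), and in *hsfa3-1*, 47 fell (35.9%) and 12 rose (34.0%). The median log2 fold change was −0.64 in *hsfa2 hsfa3-1*, −0.69 in *hsfa2* and −0.57 in *hsfa3-1*, beside −0.05, −0.04 and −0.06 over all genes. The shares of the late genes that fell were 40.5%, 43.7% and 37.3%, close to or somewhat above those of all genes, and the share that rose was below that of all genes, as the rule had required of the Col libraries. Same-numbered libraries at 4 h and without HS deviated together in each mutant, and with the replicate number as a block 64 late genes fell in *hsfa2 hsfa3-1* (37.8% of all genes), 62 in *hsfa2* (38.0%) and 61 in *hsfa3-1* (38.5%), while 14, 11 and 13 rose (36.6%, 36.5% and 35.8%). In all 3 mutants, which have separate no HS libraries, 39 late genes fell, beside 30.4% of all genes, and 6 rose, beside 30.8%. The counts of risers were smaller without replicate 3, at 6 in *hsfa2 hsfa3-1*, 5 in *hsfa2* and 6 in *hsfa3-1*, and the shares of all genes in that fit were not counted. TMM normalization moved the 4 h fold changes of every gene up by 0.15 to 0.21 on the log2 scale relative to plain CPM, and at 28 h and 52 h by no more than 0.08 in either direction.

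Markers of root and shoot cells moved with time too. The 10 root markers summed to between 314 and 594 CPM in the libraries at 4 h, against 5092 to 8766 CPM without HS, and were at 5738 to 8655 CPM at 28 h and 5208 to 8256 CPM at 52 h. At 28 h, 4 of the 10 were lower than without HS in *hsfa2 hsfa3-1*, 2 in *hsfa2* and 5 in *hsfa3-1*, and at 52 h 1, 0 and 0 were. The median log2 fold change of the 10 was −1.33, −0.64 and −1.35 at 28 h in these mutants. At 52 h it was −0.94, −0.80 and −0.58, so the sums do not describe every marker. The 8 shoot markers summed to 11730 to 17090 CPM at 4 h, against 21450 to 32780 CPM without HS over all genotypes. In Col, which chose the genes, their sum at 28 h was 21700 to 24100 CPM, against 27720 to 32780 CPM without HS, with no overlap, while in the mutants it was 24330 to 30030 CPM at 28 h, against 21450 to 29750 CPM. Of the 8, 0 rose or fell at 28 h in any mutant and 1 fell at 52 h in each. None of these root or shoot markers was below 0.1 CPM in any group. Their part in the changes of the late genes was not tested.

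Applied to the libraries of each mutant in place of Col, the same rule selected 103 genes in *hsfa2 hsfa3-1*, 0.309% of the 33323, and 50 of them were late genes. It selected 78 genes in *hsfa2* (0.234%), of which 56 were late genes, and 85 in *hsfa3-1* (0.255%), of which 51 were late genes. The late genes made up 48.5%, 71.8% and 60.0% of these mutant lists, and the shared genes were 39.1%, 43.8% and 39.8% of the late genes. Of the 128 late genes, 30 met the rule in all 3 mutants, 23 in 2, 21 in 1 and 54 in none. Among the 30 were *PEN3*, *WAK2*, *WAKL6*, *EP1*, *FLS2*, *WRKY28*, *PDF1.4*, *PRX52*, *GRP9* and *AT2G05510*.

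By kind of protein, 14 receptor-like kinases formed the largest defined group after the 19 metabolic enzymes. Of the 14, 12 rose at 28 h and 13 at 52 h in *hsfa2 hsfa3-1*, 13 and 13 in *hsfa2*, and 14 and 14 in *hsfa3-1*. The kinds were assigned from the annotation after values had been seen, as was the choice of the receptor kinases, peroxidases, transporters and regulators described here beyond the genes that the naming rule took.

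Wall-associated kinases bind pectin in the cell wall. *WAK2* had 7.22, 3.78 and 3.72 CPM without HS, 0.919, 0.474 and 0.479 CPM at 4 h, 11.7, 10.6 and 7.44 CPM at 28 h and 16, 16.3 and 13.4 CPM at 52 h in the 3 libraries of *hsfa2 hsfa3-1*. In the single mutants it had 2.49 to 5.27 CPM without HS, 0.178 to 0.983 CPM at 4 h, 7.74 to 10.4 CPM at 28 h and 12.9 to 15.3 CPM at 52 h. In each mutant the libraries at 4 h lay below and those at 28 h and 52 h above all unheated ones, and those at 52 h were the highest. Its log2 fold change at 52 h was 1.63 ± 0.31 in *hsfa2 hsfa3-1* (edgeR, adjusted p = 0.000657), 1.73 ± 0.31 in *hsfa2* (adjusted p = 0.000358) and 1.74 ± 0.31 in *hsfa3-1* (adjusted p = 0.000411). *WAK2* overlaps *AT1G21280*, so its counts are uncertain in that respect. Its tandem copy *WAK1* had only 0.299 to 0.746 CPM without HS in the mutants and 0.943 to 1.95 CPM at 52 h. *WAK1* rose at both times in *hsfa2* and *hsfa3-1*, while in *hsfa2 hsfa3-1* it rose at 52 h (1.27 ± 0.31 on the log2 scale) and its 0.80 ± 0.31 at 28 h did not pass the test (edgeR, adjusted p = 0.0668). The copies share a stretch of the heat shock element core GAANNTTC upstream of their starts, shown with the core in capitals because it is the one motif match that the pair has in common in nearly the same letters (plus strand, chr1:7439001-7439036 and chr1:7444606-7444641).
WAK1: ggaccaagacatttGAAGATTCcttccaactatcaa
WAK2: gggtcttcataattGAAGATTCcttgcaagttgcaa

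Most other receptor kinases also rose at 28 h and 52 h, but they differed in their levels at 4 h and in the time of their highest libraries. *WAKL6*, a relative of the WAKs, had 2.21, 1.83 and 1.87 CPM without HS, 1.96, 1.72 and 1.05 CPM at 4 h, 6.64, 5.19 and 6.25 CPM at 28 h and 8.45, 4.59 and 7.1 CPM at 52 h in *hsfa2 hsfa3-1*, with log2 fold changes of 1.58 ± 0.25 and 1.76 ± 0.25 at the last 2 times. *EP1*, annotated as receptor-like kinase-related, had 1.37, 2.28 and 2.18 CPM, 1.04, 0.563 and 0.748 CPM, 8.98, 7.52 and 6.81 CPM and 14.8, 8.62 and 11.2 CPM at the same times in this mutant and rose by 2.57 ± 0.30 (log2) at 52 h. In both genes the later libraries did not overlap those without HS, and of the pair *EP1* fell at 4 h in all 3 mutants while *WAKL6* did not pass the test there. *FLS2*, the receptor of bacterial flagellin, differed in shape, with its highest libraries at 28 h (26, 26.1 and 21.8 CPM in *hsfa2 hsfa3-1*) and lower ones at 52 h (15.1, 21.3 and 15.7 CPM), against 8.8, 5.2 and 9.73 CPM without HS. The later times were not tested against each other here or below. *FLS2* rose at both times in all 3 mutants (log2 fold change 0.92 to 1.61), but it overlaps *AT5G46340*. *HAE*, the receptor kinase of floral organ abscission, rose by 0.82 to 1.30 (log2) in the mutants over both times, and *AT1G66920*, annotated as a protein kinase, by 1.97 to 2.96. An exception was *AT3G45390*, an L-type lectin-domain receptor kinase that overlaps another gene. It rose at 28 h in *hsfa2* (1.02 ± 0.29, log2) and *hsfa3-1* (1.07 ± 0.30), while in *hsfa2 hsfa3-1* its libraries held 0.593, 1.1 and 0.892 CPM at 28 h, against 0.776, 1.18 and 1.36 CPM without HS.

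Class III peroxidases had the highest median log2 fold change of all kinds at both times in each mutant. All 6 rose at 28 h and at 52 h in *hsfa2 hsfa3-1*, with medians of 2.22 and 2.25, while 5 and 6 rose in *hsfa2* and 6 and 5 in *hsfa3-1*. *AT4G36430* had 4.6, 3.81 and 4.41 CPM without HS, 3.08, 3.44 and 2.63 CPM at 4 h, 28.8, 29.6 and 30.4 CPM at 28 h and 14.9, 26.2 and 26.3 CPM at 52 h in *hsfa2 hsfa3-1*. Its libraries without HS and at 4 h were all below those of the later times by a wide margin, and its log2 fold change at 28 h was 2.77 ± 0.25 (edgeR, adjusted p = 3.07e-09). *AT2G18150* had 1.61, 1.3 and 1.12 CPM without HS, 0.682, 0.978 and 0.688 CPM at 4 h, 11.3, 14.7 and 11.5 CPM at 28 h and 7.17, 11.1 and 12 CPM at 52 h in this mutant, and its log2 fold changes over the mutants and both times, all of which passed, were 2.89 to 3.26. *PRX52*, a peroxidase of lignin formation, was near the limit of detection without HS, at 0.328, 0.414 and 0.151 CPM in *hsfa2 hsfa3-1*, 0.41, 0.155 and 0.094 CPM in *hsfa2* and 0.299, 0.237 and 0.302 CPM in *hsfa3-1*. At 28 h it had 5.07, 4.42 and 3.66 CPM, 4.46, 4.24 and 5.11 CPM and 3.83, 3.75 and 3.96 CPM in these genotypes, and at 52 h 0.774 to 2 CPM over the 9 libraries. *PRX52* thus peaked at 28 h, whereas *PRXCA* had its highest libraries at 52 h (2.77, 6.14 and 4.59 CPM in *hsfa2 hsfa3-1*), overlapping those at 28 h (2.13, 2.84 and 3.84 CPM), against 1.13, 0.68 and 0.906 CPM without HS.

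Of 9 other cell wall genes, 8 and 8 rose at 28 h and 52 h in *hsfa2 hsfa3-1*, 9 and 8 in *hsfa2*, and 8 and 7 in *hsfa3-1*. One of them, *AT2G05510*, encodes a glycine-rich protein of the kind that is secreted to the wall, and it had the largest mean ratio in Col (3.68 at 28 h and 3.13 at 52 h). In *hsfa2 hsfa3-1* it had 50.3, 37.8 and 49.3 CPM without HS, 33.5, 28.2 and 15.6 CPM at 4 h, 346, 266 and 350.0 CPM at 28 h and 295, 183 and 263 CPM at 52 h. In *hsfa2* it had 50.4, 37.3 and 38.7 CPM, 21.4, 26.2 and 19.7 CPM, 356, 239.5 and 364 CPM and 289, 153 and 210.5 CPM at these times. In *hsfa3-1* the values were 33.6, 47.5 and 37 CPM, 27.8, 23.2 and 20.5 CPM, 308, 265 and 393 CPM and 433, 134 and 310.0 CPM, and in Col 29.6, 27.2 and 36.9 CPM, 25.5, 23.5 and 22.6 CPM, 599.9, 325 and 312 CPM and 303, 241 and 303 CPM. All 24 libraries of the later times were above all 24 of no HS and 4 h. The log2 fold change at 28 h was 2.78 ± 0.32 in *hsfa2 hsfa3-1* (edgeR, adjusted p = 3.65e-07), 2.94 ± 0.32 in *hsfa2* (adjusted p = 6.42e-08) and 3.01 ± 0.33 in *hsfa3-1* (adjusted p = 5.32e-08). Its tandem relative *GRP9* fell at 4 h (log2 fold change −1.62 to −1.19) and rose by 1.52 to 2.39 (log2) at the later times in the mutants.

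Some sugar-cleaving enzymes of this group dropped at 4 h. *BGLU44*, a beta-glucosidase, had 265, 253 and 306 CPM without HS, 78.7, 65 and 68.4 CPM at 4 h, 571, 590.3 and 549 CPM at 28 h and 529.6, 588 and 477 CPM at 52 h in *hsfa2 hsfa3-1*. Its log2 fold change was −1.75 ± 0.12 at 4 h and 1.03 ± 0.11 at 28 h, both past the test. *MUM2*, a beta-galactosidase known from seed coat mucilage, fell at 4 h in the mutants (log2 fold change −2.83 to −2.67) and rose by 0.70 to 0.95 (log2) later. Both genes thus crossed their unheated level between 4 h and 28 h in every mutant. *AT5G62360*, annotated as an invertase or pectin methylesterase inhibitor, had 5.94, 7.15 and 6.32 CPM without HS, 4.3, 5.25 and 3.08 CPM at 4 h, 26.4, 28.7 and 29.6 CPM at 28 h and 16.2, 18.8 and 16.5 CPM at 52 h in *hsfa2 hsfa3-1* and rose at both later times in all 3 mutants. *EXPA16*, an expansin, which loosens walls, rose at both times in *hsfa2 hsfa3-1* and *hsfa2*, and at 52 h in *hsfa3-1* its log2 fold change of 0.67 ± 0.30 did not pass the test (edgeR, adjusted p = 0.164).

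**Figure D2:**
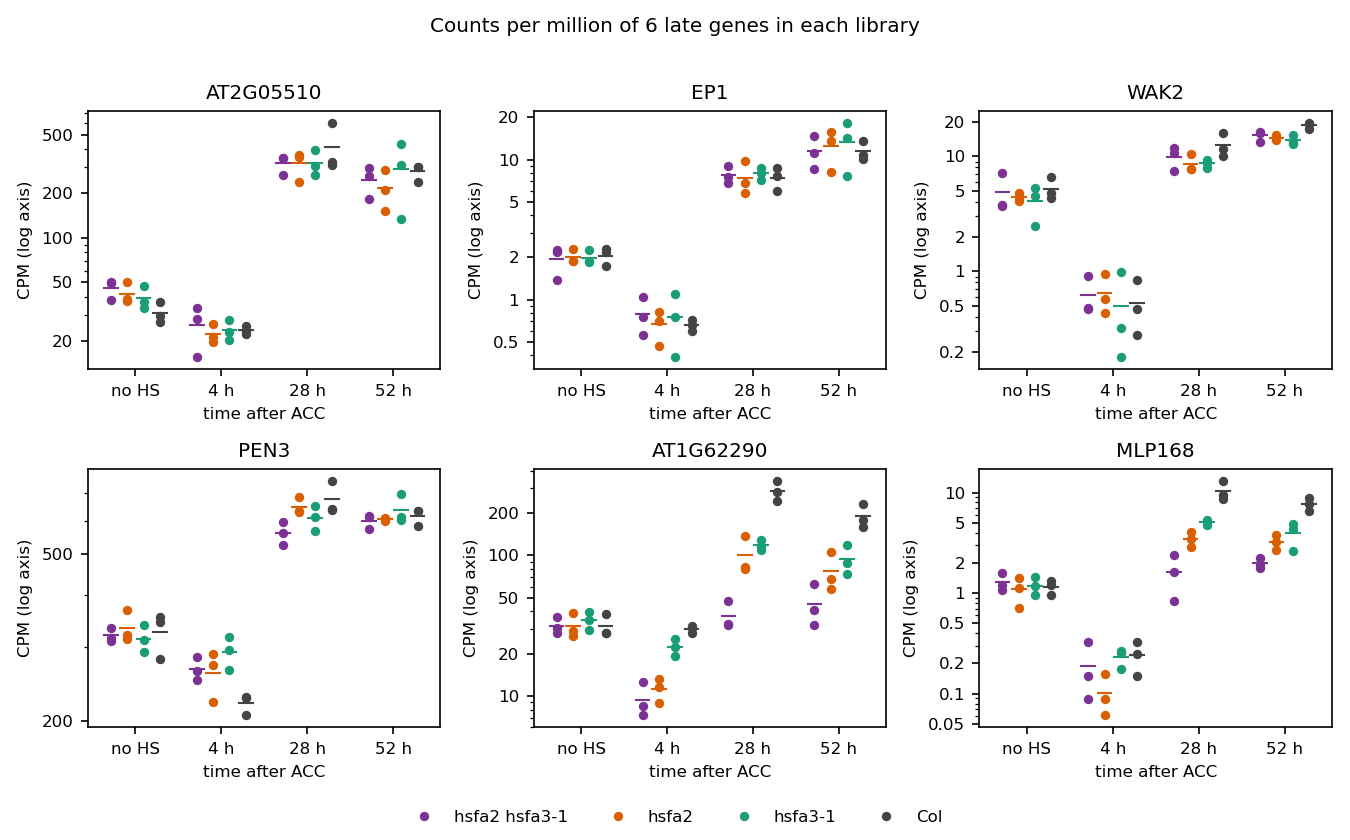
CPM (log axis) of 6 late genes in each library, with 1 point per library and a line at the mean of 3, by genotype and time, with no HS first and then the 3 recovery times. *PEN3* lies between 526 and 697 CPM in all mutant libraries at 28 h and 52 h, while the mean of *AT1G62290* and of *MLP168* is lowest at these times in *hsfa2 hsfa3-1*.

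Of the 11 transporters, 9 and 9 rose at 28 h and 52 h in *hsfa2 hsfa3-1*, 9 and 9 in *hsfa2*, and 10 and 8 in *hsfa3-1*. *PEN3*, an ABC transporter at the plasma membrane that acts in resistance to leaf pathogens, had 315, 333 and 310.0 CPM without HS, 249.6, 284 and 263 CPM at 4 h, 526, 597 and 563 CPM at 28 h and 612, 574 and 617 CPM at 52 h in *hsfa2 hsfa3-1*. Over the single mutants it had 292 to 367 CPM, 221 to 317 CPM, 569 to 684 CPM and 601 to 697 CPM at these times. Its rise was small but larger than the spread between replicates, with log2 fold changes of 0.79 ± 0.11 and 0.90 ± 0.11 at 28 h and 52 h in *hsfa2 hsfa3-1* (edgeR, adjusted p = 3.33e-06 and 6.28e-07). *AAP3*, an amino acid permease that overlaps another gene, rose by 0.87 to 1.20 (log2) in the mutants. *AT4G34950*, of the major facilitator superfamily, was 1 of 6 late genes that already rose at 4 h in all 3 mutants, with 106, 99.7 and 107 CPM at 4 h in *hsfa2 hsfa3-1*, against 74.6, 56.6 and 71.6 CPM without HS. The others of these 6 were *AT1G28190*, *PP2-A5*, the RING-type genes *RING* and *RING1*, and *AT5G54710*. *AT5G52050*, of the MATE efflux family, rose at both times in all 3 mutants, by 1.50 to 2.71 (log2).

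Genes of resistance and defence gave a mixed picture. Of 4 intracellular resistance genes, 1 and 3 rose at 28 h and 52 h in *hsfa2 hsfa3-1*, 2 and 3 in *hsfa2*, and 3 and 3 in *hsfa3-1*. *RPP13*, a receptor of downy mildew effectors that overlaps another gene, had 65.1, 48.2 and 51.1 CPM without HS, 50.3, 50.1 and 55.1 CPM at 4 h, 77.4, 74.2 and 71.2 CPM at 28 h and 119.7, 78.6 and 98.8 CPM at 52 h in *hsfa2 hsfa3-1*, where only the rise at 52 h passed the test (0.85 ± 0.24, log2). Among 7 lectins and small defence proteins, 5 and 4 rose in *hsfa2 hsfa3-1*, 6 and 6 in *hsfa2*, and 7 and 6 in *hsfa3-1*. The defensin-like *PDF1.4* had 1.85, 1.36 and 1.81 CPM without HS, 0.623, 0.237 and 0.239 CPM at 4 h, 9.58, 6.15 and 8.48 CPM at 28 h and 5.3, 4.29 and 4.74 CPM at 52 h in *hsfa2 hsfa3-1* and rose at both times in all 3 mutants, by 1.50 to 2.93 (log2). *JAL22*, a jacalin-related lectin, had 311, 325 and 273 CPM, 167, 171 and 127 CPM, 463, 459 and 322 CPM and 695, 430.2 and 483 CPM at these times. Its libraries at 28 h and without HS overlapped slightly in *hsfa2 hsfa3-1*, and its log2 fold change there was 0.42 ± 0.23 (edgeR, adjusted p = 0.184), while the other 5 comparisons passed.

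Among 13 regulators, 11 and 8 rose at 28 h and 52 h in *hsfa2 hsfa3-1*, 12 and 8 in *hsfa2*, and 11 and 7 in *hsfa3-1*. *WRKY60*, a WRKY factor that acts with its close relatives in defence, had 4.18, 6.56 and 5.23 CPM without HS, 1.27, 1.04 and 0.928 CPM at 4 h, 12.8, 11.8 and 10.6 CPM at 28 h and 11.7, 10.1 and 9.7 CPM at 52 h in *hsfa2 hsfa3-1*. Its log2 fold change was −2.09 ± 0.20 at 4 h and 1.11 ± 0.17 at 28 h (edgeR, adjusted p = 3.81e-05), and *hsfa2* and *hsfa3-1* gave 0.86 and 1.11 at 28 h, which passed too. *WRKY28*, in contrast, had 1.79, 1.06 and 1.57 CPM without HS, 1.93, 1.57 and 2.24 CPM at 4 h, 5.49, 2.96 and 5.89 CPM at 28 h and 4.05, 3.7 and 3.32 CPM at 52 h in this mutant, with no fall at 4 h that passed the test. *NIMIN-3*, which binds the salicylate regulator NPR1, rose by 0.47 to 0.69 (log2) in all 6 comparisons. *AGL20*, also known as *SOC1* and a promoter of flowering, rose at 28 h in the 3 mutants (1.06 to 1.17, log2), while its 0.72 to 0.81 at 52 h did not pass the test. *SEP3*, a MADS-box gene of flower development, rose in 3 of the 6 comparisons and *MAF5*, a relative of the flowering repressor *FLC*, in 2.

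**Figure D3:**
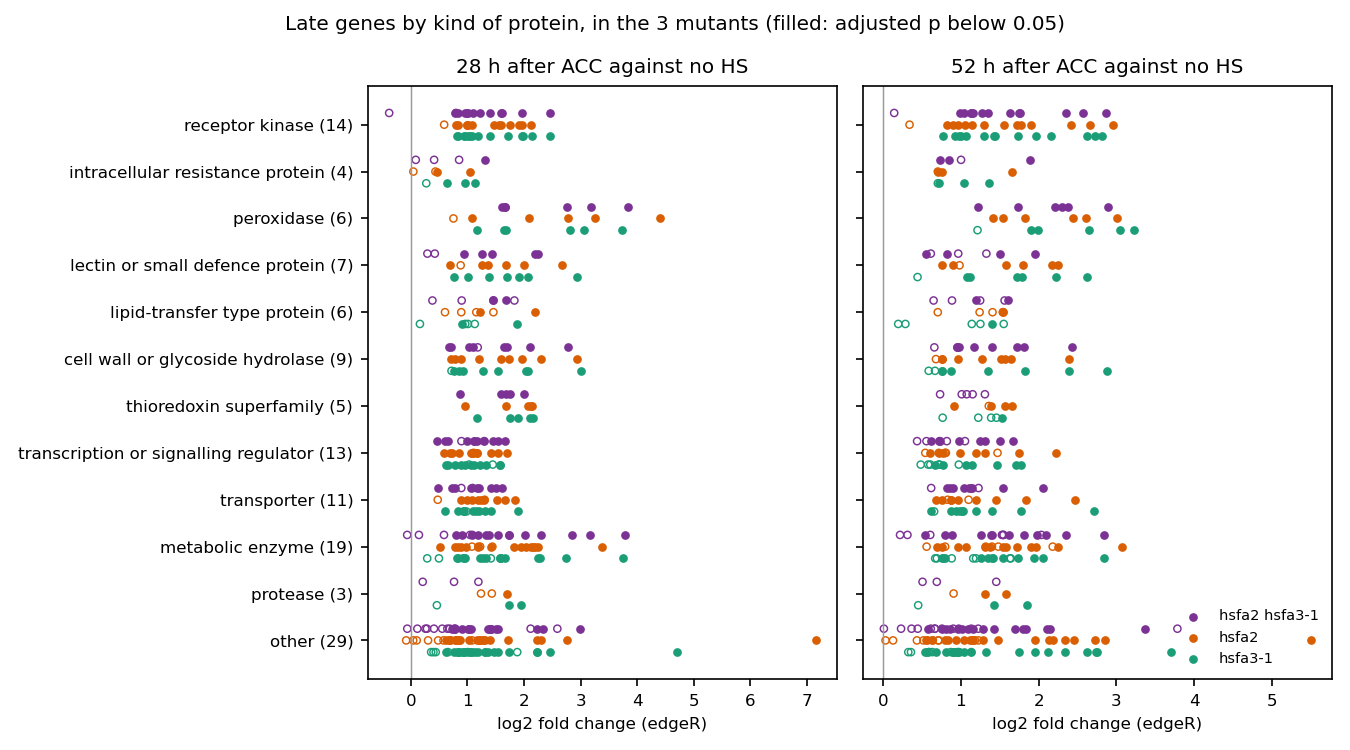
Log2 fold change (edgeR, x axis) of each of the 126 late genes against no HS at 28 h and 52 h, by kind of protein and mutant, with filled points at an adjusted p below 0.05. The 6 peroxidases have the highest medians, 2.22 and 2.25 in *hsfa2 hsfa3-1*, and few of the 6 lipid-transfer type genes pass the test.

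Of 19 metabolic enzymes, 14 and 12 rose in *hsfa2 hsfa3-1* at 28 h and 52 h, 15 and 13 in *hsfa2*, and 14 and 12 in *hsfa3-1*. *MES18*, a methyl esterase that overlaps other genes, rose most at 52 h, with 7.83, 8.11 and 7.92 CPM in *hsfa2 hsfa3-1*, 8.93, 5.41 and 9.39 CPM in *hsfa2* and 12.9, 6.24 and 9.29 CPM in *hsfa3-1*, against 0.496 to 1.91 CPM without HS over the 9 libraries. *LOX3*, a lipoxygenase of jasmonate synthesis, had 10.4, 9.31 and 9.46 CPM without HS, 3.79, 3.7 and 3.65 CPM at 4 h, 10.4, 12.1 and 10.2 CPM at 28 h and 15.7, 12.7 and 14.3 CPM at 52 h in *hsfa2 hsfa3-1*. *LOX3* thus rose at 52 h (0.54 ± 0.16, log2), whereas its 0.14 ± 0.17 at 28 h did not pass the test. The cytochrome P450 gene *CYP71B4* rose by 1.74 to 2.85 (log2), with libraries that spread widely at 28 h (24.5, 10.4 and 17.4 CPM in *hsfa2 hsfa3-1*). *HOL2*, a methyltransferase, had 24, 13.7 and 19.1 CPM at 28 h in *hsfa2 hsfa3-1*, 25.5, 12.3 and 16.9 CPM in *hsfa2* and 19.5, 12.5 and 17.2 CPM in *hsfa3-1*, against 3.83 to 6.52 CPM without HS, and rose at both times in each. *GPAT1*, annotated as a glycerol-3-phosphate acyltransferase, had 1.04 to 2.02 CPM at 28 h over the 9 mutant libraries, against 0.181 to 0.801 CPM without HS, with no overlap. *THA1*, a threonine aldolase that overlaps another gene, had uneven libraries, with 33.4, 7.73 and 17.3 CPM at 28 h in *hsfa2 hsfa3-1*, and it rose at 28 h in all 3 mutants and did not pass the test at 52 h.

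Thioredoxin superfamily genes rose mostly at 28 h: all 5 did so in each mutant, while at 52 h 0 did in *hsfa2 hsfa3-1*, 4 in *hsfa2* and 1 in *hsfa3-1*. At 52 h the median log2 fold changes were 1.08, 1.39 and 1.39 in these mutants, and the difference between the counts was not tested. *AT4G15690* had 5.82, 2.07 and 2.99 CPM without HS, 17, 10.7 and 16.4 CPM at 28 h and 11.3, 7.88 and 7.88 CPM at 52 h in *hsfa2 hsfa3-1*. Its later libraries lay above those without HS, but the log2 fold change at 52 h of 1.31 ± 0.47 missed the threshold (edgeR, adjusted p = 0.067). Since 4 of the 5 genes are the tandem copies named above, they stand for fewer independent measurements.

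Of 6 lipid-transfer type genes, 2 and 2 rose at 28 h and 52 h in *hsfa2 hsfa3-1*, 2 and 1 in *hsfa2*, and 2 and 1 in *hsfa3-1*. *EARLI1*, a small secreted protein of this family that overlaps another gene, ranged from 3.35 to 75.4 CPM without HS over the 9 mutant libraries, with replicate 2 the highest in each mutant. At 28 h it had 72.7, 74.4 and 67.4 CPM in *hsfa2 hsfa3-1*, 36.9, 32.7 and 46.1 CPM in *hsfa2* and 30.1, 34.5 and 36.3 CPM in *hsfa3-1*. The unheated libraries of *hsfa2* and *hsfa3-1* overlapped those at 28 h, and none of its comparisons passed the test. Without replicate 2, its log2 fold change at 28 h in *hsfa3-1* was 2.13 and passed. *AZI1*, its tandem copy, which is known for a role in systemic defence priming, passed the test in 1 of the 6 comparisons, at 28 h in *hsfa2 hsfa3-1* (1.46 ± 0.50, log2).

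The remaining genes are less well known. Of 3 proteases, 0 and 0 rose at 28 h and 52 h in *hsfa2 hsfa3-1*, 1 and 2 in *hsfa2*, and 2 and 2 in *hsfa3-1*. The subtilase gene *AT4G21650* had 7.49, 4.05 and 5.71 CPM without HS, 1.01, 0.148 and 0.628 CPM at 4 h, 16.5, 10.8 and 13 CPM at 28 h and 19.7, 9.93 and 17.9 CPM at 52 h in *hsfa2 hsfa3-1*. Its later libraries lay above all unheated ones there, but the log2 fold changes of 1.19 ± 0.52 and 1.46 ± 0.52 missed the threshold (edgeR, adjusted p = 0.0998 and 0.0658), and it fell at 4 h in all 3 mutants. Of 29 other tested genes, 17 and 16 rose in *hsfa2 hsfa3-1*, 20 and 19 in *hsfa2*, and 23 and 20 in *hsfa3-1*. The uncharacterized *AT1G21520* had 0.895, 0.68 and 1.18 CPM without HS, 1.9, 1.84 and 2 CPM at 4 h, 5.25, 2.78 and 5.06 CPM at 28 h and 3.04, 3.46 and 2.48 CPM at 52 h in *hsfa2 hsfa3-1* and rose at both later times in all 3 mutants. In Col its libraries were uneven, with 6.26, 12.3 and 3.28 CPM at 28 h and 11.7, 2.01 and 2.34 CPM at 52 h.

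Besides *EARLI1*, 10 late genes passed the test in none of the 6 late comparisons, which share the no HS libraries within each mutant: *AT5G40450*, *CYP81D11*, *scpl35*, *LINC3*, *RAD50*, *TSA1*, *AT5G55450*, *ABCA8*, *TPS12* and *AT2G18190*. *CYP81D11*, a cytochrome P450 that overlaps another gene, had 169.5, 36.1 and 94.6 CPM at 28 h in *hsfa2 hsfa3-1*, against 49.9, 37.9 and 54.9 CPM without HS, so its replicates differed by more than the mean changed. *scpl35*, a serine carboxypeptidase-like gene, had 55.6, 121 and 67.1 CPM at 28 h in this mutant, against 25.5, 60.3 and 54.5 CPM, with log2 fold changes of 0.45 to 1.24 over the mutants and both times. *LINC3*, of a family of nuclear lamina-like proteins, had log2 fold changes between −0.08 and 0.45, and *TSA1*, a protein of the endoplasmic reticulum bodies, between 0.10 and 0.98. *AT5G40450*, annotated as an A-kinase anchor-like protein, had 221, 176 and 215 CPM at 28 h in *hsfa2 hsfa3-1*, against 157, 98 and 96.9 CPM without HS, and missed the threshold there (log2 fold change 0.77 ± 0.31, edgeR, adjusted p = 0.0701). In Col at 28 h its 3 libraries had 463, 203 and 147 CPM, so 1 library carried much of the mean that selected it. *AT2G18190*, annotated as a nucleoside triphosphate hydrolase, had 13.8, 10.5 and 3.62 CPM at 28 h in Col, which chose it, and 0.225 to 2.82 CPM over the 9 mutant libraries of that time. At 52 h it had 4.82, 0.266 and 0.949 CPM in Col, which overlapped the 0.177 to 1.32 CPM of the mutant libraries, so 1 Col library carried much of that mean.

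The double mutant was compared with each single mutant by the difference of their log2 fold changes against no HS, in which Col libraries enter only through the shared estimate of the spread. No late gene differed at 28 h or 52 h between *hsfa2 hsfa3-1* and *hsfa2*, beside 0.0% of all genes at either time. None differed from *hsfa3-1*, beside 0.0284% of all genes at 28 h and 0.0% at 52 h (edgeR quasi-likelihood test, Benjamini-Hochberg adjusted p below 0.05). At an unadjusted p below 0.05, 9 and 2 genes differed from *hsfa2* at 28 h and 52 h, and 5 and 4 from *hsfa3-1*. Some genes pass this threshold without any true difference, and the share of all genes that did was not counted. These 4 counts are therefore not read as a result. DESeq2 called 0 and 0 against *hsfa2* (0.0238% and 0.0% of all genes), and 1 and 0 against *hsfa3-1* (0.0396% and 0.0119%). The median differences were −0.02 and −0.06 from *hsfa2* and −0.05 and −0.03 from *hsfa3-1*, with quartiles of −0.33 and 0.20 for *hsfa2* at 28 h. Libraries of the double and single mutants with the same time and number deviated together, and with the replicate number as a block *AT1G62290* was lower in the double mutant in 3 of the 4 comparisons. With this block, 0.019% and 0.0% of all genes differed from *hsfa2* at 28 h and 52 h, and 0.0758% and 0.0284% from *hsfa3-1*.

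*AT1G62290* encodes an aspartyl protease with a saposin-like domain, and it had the second largest mean ratio in Col. In *hsfa2 hsfa3-1* it had 36.4, 30.3 and 28.3 CPM without HS, 12.6, 8.42 and 7.27 CPM at 4 h, 47.4, 32 and 32.6 CPM at 28 h and 62.3, 32.1 and 40.7 CPM at 52 h. In *hsfa2* it had 38.7, 28.9 and 26.6 CPM, 13.3, 11.6 and 8.93 CPM, 139, 79.9 and 83.4 CPM and 106, 57.4 and 67.8 CPM at these times. In *hsfa3-1* it had 39.6, 34.9 and 29.5 CPM, 22.3, 25.2 and 19.4 CPM, 128, 109 and 117 CPM and 118, 74.4 and 89 CPM. In Col, whose libraries chose it, there were 38.2, 28.2 and 28.2 CPM, 31.7, 28 and 30.4 CPM, 340.1, 281 and 245 CPM and 233, 161 and 178 CPM. At 28 h the 3 genotypes with at least 1 intact factor did not overlap with the double mutant, whose libraries at 28 h overlapped its own unheated ones. The rise passed the test in *hsfa2* (1.70 ± 0.26, edgeR, adjusted p = 2.39e-05) and *hsfa3-1* (1.74 ± 0.26, adjusted p = 1.79e-05) but not in *hsfa2 hsfa3-1* (0.21 ± 0.26, adjusted p = 0.601). The difference at 28 h was −1.49 ± 0.37 from *hsfa2* on the log2 scale (edgeR, adjusted p = 0.382, and 4.32e-05 with the replicate block) and −1.53 ± 0.37 from *hsfa3-1* (adjusted p = 0.332, and 1.34e-05 with the block). At 52 h it was −0.92 ± 0.36 from *hsfa3-1* (adjusted p = 1, and 0.0461 with the block). At 4 h the gene fell in *hsfa2 hsfa3-1* (−1.54 ± 0.27) and *hsfa2* (−1.26 ± 0.27), and its −0.49 ± 0.26 in *hsfa3-1* did not pass the test.

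*MLP168*, of the major latex protein-like family, had a like pattern at far fewer counts. In *hsfa2 hsfa3-1* it had 1.07, 1.21 and 1.6 CPM without HS, 0.089, 0.326 and 0.15 CPM at 4 h, 0.83, 2.39 and 1.64 CPM at 28 h and 1.79, 1.97 and 2.24 CPM at 52 h. At 28 h there were 3.47, 2.86 and 4.04 CPM in *hsfa2*, 4.78, 5.15 and 5.29 CPM in *hsfa3-1* and 8.68, 9.54 and 13.1 CPM in Col, which chose it, so the double mutant did not overlap the other genotypes. Its difference from *hsfa3-1* at 28 h was −1.77 ± 0.41 on the log2 scale (edgeR, adjusted p = 0.252, and 0.0634 with the replicate block), and DESeq2 gave an adjusted p of 0.0284. *AT2G44290*, a lipid-transfer type gene, had 10.2, 10.1 and 9.22 CPM at 28 h in *hsfa2 hsfa3-1*, against 20.0, 15.4 and 15.4 CPM in *hsfa2*, with unheated levels of 5.16, 8.96 and 8.1 CPM and 6.22, 8.37 and 7.47 CPM, and its difference of −0.85 ± 0.28 did not pass the test (edgeR, adjusted p = 1, also with the replicate block). With a block per time point on the mutant libraries, a fit added after seeing the data, the difference was −0.84 ± 0.15 and passed (edgeR, adjusted p = 0.0135). *AT3G44120*, an F-box protein gene, had log2 fold changes of −0.06 and 0.01 at 28 h and 52 h in *hsfa2 hsfa3-1* and rose in *hsfa3-1* (0.85 and 0.91), while its 0.48 and 0.71 in *hsfa2* did not pass the test.

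**Figure D4:**
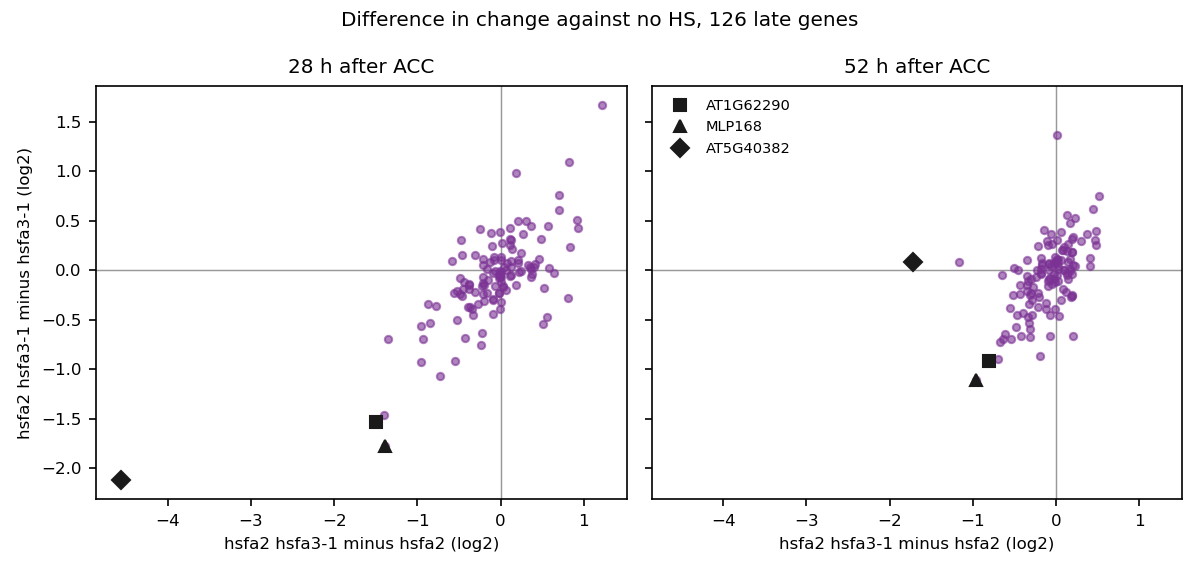
Each point is 1 of 126 late genes, with the log2 fold change against no HS in *hsfa2 hsfa3-1* minus that in *hsfa2* (x axis) and minus that in *hsfa3-1* (y axis), at 28 h and 52 h. Both axes use the double mutant libraries, so their joint spread is not a result. *AT1G62290* lies at −1.49 and −1.53 at 28 h; *AT5G40382*, the point farthest to the left at 28 h, has no more than 0.714 CPM in any mutant library, so its fitted value depends on the prior count.

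The mutants are set beside Col only as a description, since Col chose the genes and a choice on high Col values moves this difference down. For the late genes the median log2 fold change in the mutant minus that in Col was −0.27 and −0.23 at 28 h and 52 h in *hsfa2 hsfa3-1*, −0.18 and −0.18 in *hsfa2*, and −0.26 and −0.24 in *hsfa3-1*. For the 130 genes with a ratio above 0.8 in Col at all 3 recovery times and no overlap with no HS, of which 119 were tested, it was −1.07 and −0.93, −0.60 and −0.63, and −0.59 and −0.62 in these mutants. Over all genes it was between −0.03 and 0.01. In *hsfa2 hsfa3-1*, 37 of the 126 late genes had a larger change at 28 h than Col and 20 had one that was smaller by more than 1 on the log2 scale, against 10 and 63 of the 119. Of all 21096 genes tested, 9996 had a larger change than Col and 509 had one that was smaller by more than 1.

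Lists of related genes put the members in context. Of 72 WRKY genes, 61 were tested and 2 are late genes, and 11 and 10 of the 61 rose at 28 h and 52 h in *hsfa2 hsfa3-1*, 9 and 10 in *hsfa2*, and 12 and 12 in *hsfa3-1*, while 7 and 5, 4 and 3, and 5 and 1 fell. Of 13 tested defensin genes, with *PDF1.4* as the late gene, 3 and 1 rose and 1 and 1 fell in *hsfa2 hsfa3-1*. Of 20 tested expansins, with *EXPA16*, 1 and 2 rose and 2 and 1 fell there. Of 29 tested genes of the XTH family, which remodels xyloglucan in the wall and holds no late gene, 1 and 1 rose and 5 and 5 fell. Of 16 tested jasmonate and wound genes, with *LOX3*, 0 and 6 rose and 2 and 1 fell in *hsfa2 hsfa3-1*, 1 and 4 rose and 3 and 0 fell in *hsfa2*, and 0 and 6 rose and 2 and 0 fell in *hsfa3-1*. Their median log2 fold changes were −0.07 and 0.54 in the double mutant. Of 13 tested age and flowering genes, with *AGL20*, 2 and 3 rose and 2 and 0 fell in *hsfa2 hsfa3-1*, while 1 and 2 rose in *hsfa2*, 2 and 2 rose in *hsfa3-1* and 0 fell in either. Of 14 tested salicylate defence genes, none a late gene, 3 and 2 rose and 1 and 3 fell in *hsfa2 hsfa3-1*. Of 10 clock genes, none a late gene, 4 rose at 28 h and 0 at 52 h in *hsfa2 hsfa3-1*, 5 and 1 in *hsfa2*, and 5 and 0 in *hsfa3-1*. None of them fell at 28 h, and 2, 2 and 3 fell at 52 h in these mutants. The 19 heat shock genes on the list include no late gene, and 11 and 4 of them rose at 28 h and 52 h in *hsfa2 hsfa3-1*, 12 and 6 in *hsfa2*, and 17 and 9 in *hsfa3-1*, while 0 fell at 28 h and 1 fell at 52 h in each. Of 15 genes of phenylpropanoid and lignin synthesis, none a late gene, 0 rose at either time in any mutant, and 10 and 8 fell in *hsfa2 hsfa3-1*, 8 and 9 in *hsfa2*, and 11 and 4 in *hsfa3-1*.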

How the data were processed

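The authors sequenced whole-seedling mRNA as paired reads and aligned them to TAIR10 with STAR 2.5.1a, whose GeneCounts mode made the deposited counts (read pairs per gene, not normalized). Which of its strand columns was deposited is not given in the sources used here. The first 4 lines of each file hold pairs outside genes, 7.20% to 9.38% of a library, and were left out. Of 33323 genes, 32835 matched a RefSeq locus of TAIR10.1, and 26700 of these are protein-coding. Replicates of a group differed by more than counting noise in all 48 pairs, so none was taken for a repeat of another.

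The 21096 protein-coding genes kept by filterByExpr were normalized by TMM and fitted with 1 term per group over all 48 libraries (edgeR 4.0.16 quasi-likelihood test, R 4.3.3, limma 3.58.1). A standard error is the fitted log2 change over the root of its F statistic. The Benjamini-Hochberg adjustment ran over every gene tested, with a threshold of 0.05. Tables, promoters and plots were made in Python 3.11.15 with pandas 2.3.3, Biopython 1.88 and matplotlib 3.10.9. On simulated counts, edgeR called 82.0% of genes with a true log2 change of 1 at 28 h in *hsfa2*, and 68.0% with a true difference of −1 between *hsfa2 hsfa3-1* and *hsfa2* at 28 h (50.0% with a block per time point). The simulated libraries were drawn independently, without the pairing by replicate number described below. These shares therefore do not show how often a fit with or without a block finds such differences in the real libraries.

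Replicate numbers were checked by the correlation of deviations from group means over all genes. Same-numbered libraries of the double mutant and a single mutant at the same time correlated at 0.29 to 0.76 in all 24 pairs, each most strongly with its own number, so the numbers pair them. Libraries at 4 h and without HS correlated above 0.1 in every pair of each genotype (lowest 0.145), and those at 28 h or 52 h and without HS did so in every pair only in *hsfa2*. In *hsfa2 hsfa3-1* and *hsfa3-1*, numbers 1 and 2 at 28 h and 52 h correlated with their own no HS library at 0.25 to 0.52. Number 3 did so at −0.09 to 0.08. The later comparisons with no HS are thus partly paired, and the main fit does not use this pairing.

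The late genes and the lists were chosen with earlier results of these data known. Genes are named by a rule: the 10 with the largest mean ratio in Col, the 8 with the highest CPM, the late genes on a list, the 3 just inside and 3 just outside the thresholds, the 5 with the smallest p between the double and a single mutant, and 5 of those that rose in no mutant. Others were chosen after their values were seen. Alternatives were DESeq2 1.42.0, its size factors in edgeR, all genes in the files, no filter, a stricter filter, other thresholds, a replicate block and leaving out each replicate number.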

Additional observations from a re-analysis of the deposited data

Results flagged for a closer look

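A further fit was added after seeing the data, with a replicate block for each time point on the mutant libraries alone, because same-numbered libraries of the mutants at a time deviated together. In it the change against no HS differed between the double and a single mutant for 2 late genes. Of all 21013 genes in this fit, 0.133% differed from *hsfa2* at 28 h and 0.0% at 52 h. From *hsfa3-1*, 0.171% and 0.0476% differed. For *AT1G62290* the log2 fold change in *hsfa2 hsfa3-1* minus that in *hsfa2* was −1.49 at 28 h (edgeR, adjusted p = 1.07e-05), and minus that in *hsfa3-1* it was −1.57 at 28 h (adjusted p = 3.86e-06) and −0.96 at 52 h (adjusted p = 0.00432). For *AT2G44290* it was −0.84 at 28 h minus that in *hsfa2* (adjusted p = 0.0135). Without a block none of these differences passed the test, at adjusted p-values from 0.332 to 1.0 (edgeR).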

How the results depend on the processing

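The 174 log2 fold changes of 29 named genes were recomputed under each alternative, except that only 150 of them could be had with the stricter filter. Of the recomputed values, 1681 kept direction and call, 150 lost and 45 gained the call, and 14 changed sign, each of a value that had not passed the test. With 1 replicate number left out, the log2 fold change ranged from −0.13 to 0.48 for *MLP168* at 28 h, −0.0712 to 0.47 for *AT3G45390* at 52 h, −0.19 to 0.0826 for *AT3G44120* at 28 h and −0.24 to 0.51 for *CYP81D11* at 52 h in *hsfa2 hsfa3-1*. It ranged from −0.0736 to 0.16 for *LINC3* at 52 h in *hsfa2*, and from −0.29 to 2.13 at 28 h (−0.2894 without replicate 3) and −0.38 to 2.00 at 52 h (−0.0095 without replicate 1) for *EARLI1* in *hsfa3-1*. *AT3G44120* at 52 h in *hsfa2 hsfa3-1* was at −0.12 to 0.0994 in this way, at −0.0018 by DESeq2, −0.0009 with its size factors, −0.0069 with all genes and −0.0039 with the replicate block.

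With 1 replicate number left out, 37 to 80 late genes rose at 28 h and 34 to 70 at 52 h in *hsfa2 hsfa3-1*, 39 to 88 and 29 to 84 in *hsfa2*, and 50 to 99 and 30 to 73 in *hsfa3-1*, lowest without replicate 3 in each. At 4 h, 6 to 12, 5 to 9 and 6 to 11 rose. With a log2 fold change above 1 as well, 4, 5 and 4 rose at 4 h in these mutants. At an adjusted p below 0.01, 4 rose at 4 h in *hsfa2* and 5 in *hsfa3-1*, and with the stricter filter 6 in *hsfa2*. The shares of all genes under the settings of this paragraph were not counted.

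With the replicate block, 108 and 109 late genes rose at 28 h and 52 h in *hsfa2 hsfa3-1*, 115 and 115 in *hsfa2*, and 116 and 111 in *hsfa3-1*. The shares of all genes that rose at these times with the block were not counted. Between the double mutant and *hsfa2* at 28 h, 1 gene differed with the block (0.019% of all genes), 2 with a block per time point (0.133%) and 0 to 1 with a replicate number left out. Against *hsfa3-1* at 28 h, 1 differed by DESeq2 (0.0396%), with the block (0.0758%) and with a block per time point (0.171%). With a number left out, 0 to 1 did. At 52 h, 1 differed from *hsfa3-1* with the block (0.0284%) and with a block per time point (0.0476%), and 0 with a number left out. The shares of all genes with a number left out were not counted. The rule selected 45 genes with a pseudocount of 5 CPM, 151 with 0.5 CPM, 87 with TMM, and 124 to 150 with a replicate number left out. Col libraries of numbers 2 and 3 at 28 h did not deviate with the same numbers of *hsfa2 hsfa3-1* (lowest correlation −0.35), the 1 genotype they were compared with. Without 1 or the other of these Col libraries the rule selected 127 or 134. The causes were not tested.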
